A study of Mus musculus with 6 samples.

Results

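Immediate early genes are genes whose transcription starts within minutes of a stimulus without the need for new protein synthesis, and 40 of them that respond to neuronal activity were followed here in the striatum of mice that overexpress Shank3. The 40 genes were chosen by name and matched by Ensembl identifier through GENCODE M21. All 40 were in the table of 46078 listed genes, and all 40 were among the 17605 genes that averaged at least 10 normalized read counts over the 6 libraries, which were the genes tested.

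RNA was sequenced from the striatum of 3 wild-type (WT) and 3 transgenic (Shank3 TG) male C57BL/6J mice aged 12 weeks, with 1 library for each mouse. The Shank3 TG mice carried a transgene for Shank3, a scaffold protein of the excitatory postsynapse, fused to EGFP, and the promoter that drives it is not given in the sources used here. The mice were anesthetized with isoflurane before the brain was taken, and the labels and methods describe no stimulated group, so each value is the RNA level in 1 mouse at 1 moment. The libraries held between 27689589 and 36647626 reads counted on genes. A normalized read count is the number of reads of a gene divided by the size factor of its library. The targeted gene, Shank3, had 29891, 28308 and 26044 normalized read counts in TG replicates 1, 2 and 3 and 13807, 12918 and 13865 in WT replicates 1, 2 and 3. All TG libraries were above all WT libraries, with a log2 fold change of 1.05 (SE 0.06, adjusted P = 7.04e-05, limma with Benjamini-Hochberg adjustment). Reads of the transgene and of the endogenous gene cannot be told apart in this count. Markers of striatal neurons were present in every library: Drd2, the dopamine receptor of indirect pathway spiny neurons, had between 3158 and 4362 normalized read counts. Slc17a7, the vesicular glutamate transporter of cortical neurons, had between 20237 and 29848.

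Calcium entry through glutamate receptors and calcium channels, and cyclic AMP made after dopamine receptor stimulation, activate kinases that act on transcription factors already bound at these genes. CREB binds the cyclic AMP response element (CRE), and SRF with its partners binds the CArG box. Many of the genes encode transcription factors of their own, such as Fos and the Egr proteins, others encode phosphatases that switch the same kinases off, and a few, such as Arc, act at the synapse. In the striatum, Fos, Egr1 and Arc are widely used to mark spiny neurons that responded to dopamine, to a drug of abuse or to a new environment.

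The upstream sequences of 5 of the genes are shown because they hold copies of the CRE core, the letters that CREB is known to bind. Each is the 250 bases before the gene start in RefSeq (build GRCm38.p6), written 5′ to 3′ on the strand of the gene, with the CRE core TGACG on either strand (CGTCA on the other) and the TATA box TATAAA in capitals. The Fos window is chr12:85473640-85473889 on the plus strand, Npas4 is chr19:4989972-4990221 on the minus strand, Nr4a1 is chr15:101266596-101266845 on the plus strand, Egr4 is chr6:85513590-85513839 on the minus strand and Btg2 is chr1:134079156-134079405 on the minus strand.
Fos: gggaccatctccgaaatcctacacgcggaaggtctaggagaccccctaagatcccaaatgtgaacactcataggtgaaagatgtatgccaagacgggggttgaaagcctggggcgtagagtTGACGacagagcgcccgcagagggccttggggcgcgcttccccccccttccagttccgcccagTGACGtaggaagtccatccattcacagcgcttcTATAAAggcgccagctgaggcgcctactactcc
Npas4: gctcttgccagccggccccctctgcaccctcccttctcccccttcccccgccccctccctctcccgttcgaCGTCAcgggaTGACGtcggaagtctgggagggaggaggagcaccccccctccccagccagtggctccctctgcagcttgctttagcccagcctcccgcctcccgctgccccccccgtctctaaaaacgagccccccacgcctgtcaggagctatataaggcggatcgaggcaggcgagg
Nr4a1: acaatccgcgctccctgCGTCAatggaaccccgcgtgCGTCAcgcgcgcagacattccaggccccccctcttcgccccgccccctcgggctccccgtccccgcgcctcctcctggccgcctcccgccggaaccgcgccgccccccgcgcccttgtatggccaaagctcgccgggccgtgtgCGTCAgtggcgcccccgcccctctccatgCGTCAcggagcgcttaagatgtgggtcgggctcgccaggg
Egr4: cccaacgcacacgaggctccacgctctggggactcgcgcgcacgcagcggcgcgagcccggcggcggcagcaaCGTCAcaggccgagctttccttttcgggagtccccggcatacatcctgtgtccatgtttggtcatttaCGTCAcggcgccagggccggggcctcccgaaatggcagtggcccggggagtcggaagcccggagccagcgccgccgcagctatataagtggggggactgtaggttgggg
Btg2: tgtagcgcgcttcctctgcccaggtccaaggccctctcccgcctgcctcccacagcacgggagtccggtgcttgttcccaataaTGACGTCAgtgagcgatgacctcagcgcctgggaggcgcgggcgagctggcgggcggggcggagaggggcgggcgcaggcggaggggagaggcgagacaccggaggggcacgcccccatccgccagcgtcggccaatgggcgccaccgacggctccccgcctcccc

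The Fos window held CRE cores that begin 129 and 66 bases before the gene start and a TATA box 33 bases before it. The window of Nr4a1 held 4 CRE cores, at 233, 213, 69 and 40 bases, and that of Npas4 held 2, at 179 and 169 bases. In Btg2 the capitals mark the full palindrome TGACGTCA, which holds the core on both strands. A window was matched for 31 of the 40 genes, and those not matched were Arc, Dusp4, Egr1, Egr3, Ier2, Klf10, Nptx2, Sik1 and Trib1. The CRE core was present in 20 of the 31 genes (64.5%), against 19.8% of 27025 genes with a window. The full CRE TGACGTCA was in 4 of 31 (Btg2, Dusp1, Maff and Ppp1r15a; 12.9% against 1.77%), and the CArG box was in 3 of 31 (Dusp5, Egr2 and Srf; 9.68% against 1.62%). The EGR site GCGGGGGCG was in 6 of 31 (19.4% against 2.93%), TATAAA was in 6 of 31 (19.4% against 14.3%) and the AP-1 site TGANTCA was in 1 of 31 (Csrnp1; 3.23% against 7.82%). All motifs were searched on both strands, and the core is part of the full CRE. These matches describe the letters of the windows and no binding was measured.

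The genes differed widely in level. Per kilobase of exon, Arc, whose protein controls the removal of AMPA receptors from the synapse, had the highest level in WT mice at 3274 normalized read counts (2759 to 4109 over 3 mice), followed by Egr1 at 3035 (2564 to 3665). The ranges of Arc and Egr1 overlapped, so their order was not resolved. Nr4a1 at 1640.5 and Jund at 1620.4 came next with overlapping ranges, and Junb at 1247 and Egr4 at 1102 followed, also with overlapping ranges. Fos stood at 562 per kilobase (519 to 604), at rank 13 of the 40, and Npas4 at 299.8 (249 to 385), at rank 20. The lowest levels were those of Pim1 (27.8) and Atf3 (27.4), whose ranges overlapped, and of Maff (17.9), whose range lay below theirs. Of all tested genes, 98.5% had a level per kilobase below that of Arc, 84.9% below that of Fos and 16.9% below that of Maff. The table counts reads per gene over all its exons, so a level per kilobase depends on the annotated exons.

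The comparison of Shank3 TG with WT mice asks whether overexpression of a postsynaptic scaffold goes along with another level of activity-dependent transcription. None of the 40 genes passed the test (limma, adjusted P below 0.05), where 0.00568% of all tested genes passed, which is Shank3 alone. DESeq2 and edgeR on the recovered read counts called 0 of the 40 as well, against 0.0398% and 0.00568% of all genes. The smallest adjusted P value among the 40 genes was 0.971. At an unadjusted P below 0.05, 1 of 40 genes was lower in Shank3 TG mice (Jund) and 0 were higher, where 2.33% of all genes were lower, 1.98% were higher and 4.31% were either. The estimates were above 0 for 17 genes and below 0 for 23, with a median log2 fold change of −0.05 over the 40 genes beside −0.0018 over all tested genes. Because whole tissue was sequenced, fewer cells that express a gene and less RNA per cell cannot be told apart.

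The intervals show in part how large a difference could have been missed. Their SEs are those of limma, which draws the spread of each gene toward that of genes of like level. Genes that vary more than those, such as Fos (SD of log2 values within genotype 0.306), thus get narrower intervals than their own values alone would give. The counts of intervals within 1.5-fold and 1.2-fold depend on this. The 95% interval of the limma fold change lay within 1.5-fold in either direction for 36 of the 40 genes and within 1.2-fold for 12. Of all 17605 tested genes, 13984 had an interval within 1.5-fold and 8661 within 1.2-fold. Among the 12832 genes whose mean reached 100, these counts were 12603 and 8661. The interval held a ratio of 1 for 39 of the 40, all except Jund, and for 16847 of the 17605. For Fos the interval of the TG to WT ratio was 0.835 to 1.37, for Egr1 0.875 to 1.24, for Arc 0.82 to 1.23 and for Npas4 0.701 to 1.23. The widest interval was that of Atf3, 0.63 to 1.56, a gene with few reads. The group estimates differed by over 1.2-fold for 2 of the 40 genes (Maff and Klf2), where 9.09% of all genes did so. Among the 12832 genes whose mean reached 100, 191 did so, and of the 2 genes Klf2 alone reached that mean. Shank3 TG and WT libraries overlapped for 39 of the 40 genes, where 10.1% of all genes had groups that did not overlap.

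**Figure D1:**
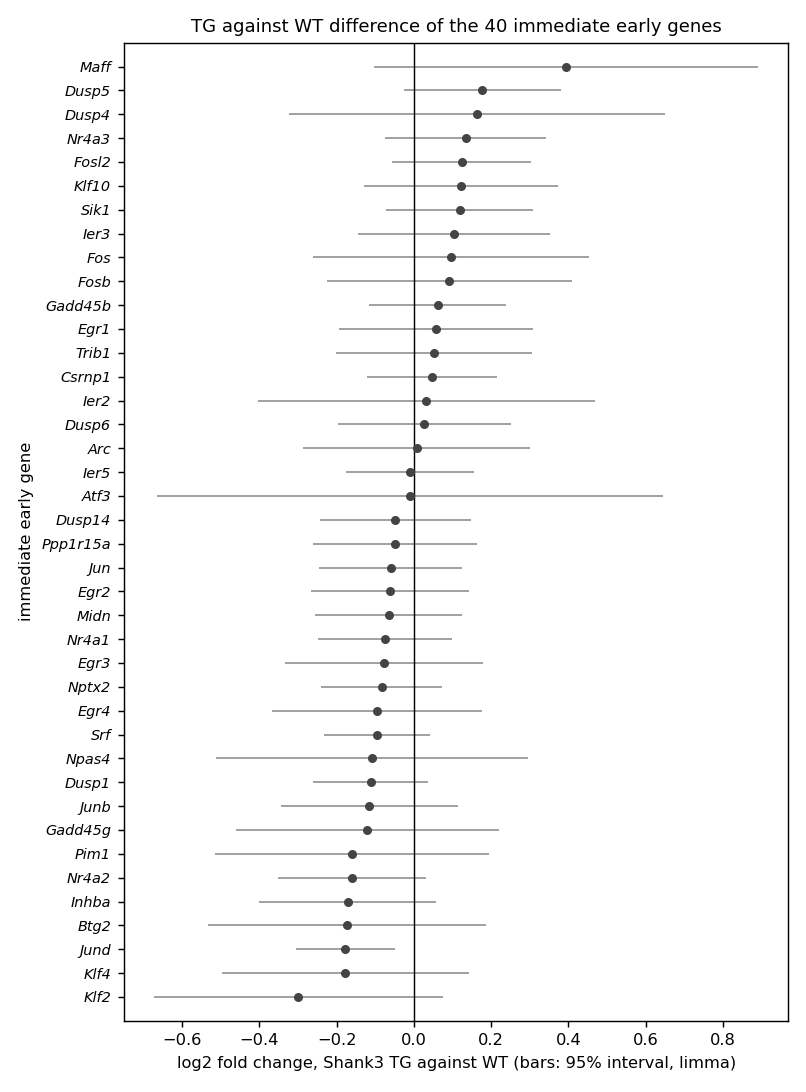
Log2 fold change of Shank3 TG against WT for the 40 immediate early genes (x axis), ordered by size, with points for the limma estimates and bars for their 95% intervals (3 libraries in each group). The bars cross 0 for 39 genes and lie below 0 for Jund, and the estimates run from −0.30 for Klf2 to 0.39 for Maff.

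The AP-1 factors and related bZIP proteins pair to form activity-dependent transcription factors. Fos (chr12:85473890-85477273, plus strand, GRCm38) had 1968, 1146 and 1246 normalized read counts in TG replicates 1, 2 and 3 and 1326, 1220.5 and 1419.6 in WT replicates 1, 2 and 3. TG replicate 1 was the highest library and TG replicate 2 the lowest, so that the WT libraries fell inside the TG range, and the log2 fold change was 0.10 (SE 0.16, adjusted P = 0.983, limma). Fosb, which also gives the long-lived ΔFosB form in the striatum, had 1360, 929.5 and 902 in the TG libraries, in replicate order, and 847, 1055 and 1053 in the WT libraries. It too was highest in TG replicate 1, and the groups overlapped (log2 fold change 0.09, SE 0.14). The counts are per gene, so the splice form that gives ΔFosB was not separated.

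Junb, a Jun protein induced with Fos, had 3266, 2409.8 and 2360.3 in the TG libraries and 2849.8, 2813 and 2946 in the WT libraries. The WT values lay close together, while TG replicate 1 was above all of them and TG replicates 2 and 3 were below all of them (log2 fold change −0.12, SE 0.10). Jund, the Jun protein known for its more constant expression, had 2519, 2412 and 2243 in the TG libraries and 2761, 2794 and 2554 in the WT libraries. It was the 1 gene of the 40 whose groups did not overlap, with every TG library below every WT library, and 5.05% of all genes were lower without overlap. Its log2 fold change was −0.18 (SE 0.06, unadjusted P = 0.0115, adjusted P = 0.971, limma), and an exact two-sided permutation test gave P = 0.1, the smallest value that 3 against 3 mice allow. In the annotation, 877 of its 1668 exon bases (52.6%) also belong to Gm11175 on the opposite strand, which was listed at 0 in every library, and whether reads were counted by strand is not given in the sources used here.

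Maff, a small Maf protein, was low, with 67.8, 66.3 and 47.7 in the TG libraries and 34.3, 46.8 and 57.9 in the WT libraries. TG replicate 3 lay between the WT values, and the estimate was the highest of the 40 genes (log2 fold change 0.39, SE 0.22, adjusted P = 0.971). Atf3, a stress-responsive partner of Jun proteins, had 99.5, 50.6 and 38.9 in the TG libraries and 66.4, 61.7 and 49.1 in the WT libraries, and its highest and lowest libraries were both TG mice, 2.56-fold apart. Of the 2 genes left, which encode the AP-1 subunits Fra-2 and c-Jun, Fosl2 had between 2146 and 2876 and Jun between 949.8 and 1211 over the 6 libraries, with overlapping groups. Over the 8 genes of this role, 4 estimates were above 0 and 4 below, with a median of 0.04.

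The 4 Egr genes encode zinc finger factors, of which Egr1 is a standard mark of active spiny neurons. Egr1 had 15297, 12719 and 14123 normalized read counts in the TG libraries, in replicate order, and 11496, 12897 and 16433 in the WT libraries. The highest and the lowest library were both WT mice, replicates 3 and 1, and the TG values fell between them (log2 fold change 0.06, SE 0.11, adjusted P = 0.983). Egr2 had 831, 645 and 686 in the TG and 700.4, 768 and 779 in the WT libraries, with WT values close together. Egr3 had 3390.1, 2716 and 2864 in the TG and 2572, 3413 and 3528 in the WT libraries, lowest in WT replicate 1. Egr4 had 2610.2, 2002 and 2025 in the TG and 1987, 2355 and 2759 in the WT libraries. Of these genes, Egr1, Egr2 and Egr4 had TG replicate 1 and WT replicate 3 as their 2 highest libraries. The log2 fold changes of Egr2, Egr3 and Egr4 were −0.06, −0.08 and −0.10 with SEs of 0.09, 0.12 and 0.12.

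The Nr4a genes encode orphan nuclear receptors. Nr4a1, induced by cyclic AMP in spiny neurons, had 6195, 5073 and 5178 in the TG libraries and 5574, 5469 and 6226 in the WT libraries, with TG replicate 1 and WT replicate 3 again highest and almost equal. Its log2 fold change was −0.07 (SE 0.08). Nr4a2, best known for its role in midbrain dopamine neurons, had 1351, 1708 and 1633 in the TG libraries and 1624, 1869 and 1738 in the WT libraries. TG replicate 1 was the lowest library of Nr4a2, the only 1 of the 40 genes for which this was so, and the groups overlapped (log2 fold change −0.16, SE 0.09, unadjusted P = 0.0904, limma). Nr4a3 had 2009, 2119.8 and 2157 in the TG and 1597, 2041 and 2134 in the WT libraries, with WT replicate 1 apart from the others at the low end.

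Npas4, a neuron-specific factor that responds to calcium, had 1502, 965 and 989 normalized read counts in the TG libraries, in replicate order, and 1099.8, 1029 and 1591 in the WT libraries. WT replicate 3 and TG replicate 1 stood above the other 4 libraries, which lay between 965 and 1099.8, and the log2 fold change was −0.11 (SE 0.18, adjusted P = 0.983). Klf2, a Krüppel-like factor also abundant in endothelial cells, had 383, 248 and 239.5 in the TG libraries and 397, 302 and 354 in the WT libraries. It had the lowest estimate of the 40 genes (log2 fold change −0.30, SE 0.17, adjusted P = 0.971), and TG replicate 1 lay inside the WT range. Klf4, another Krüppel-like factor, had 225, 211 and 158 in the TG and 215, 200.1 and 252 in the WT libraries, lowest in TG replicate 3, with a log2 fold change of −0.18 (SE 0.14). The transcription factor genes Srf, Klf10 and Csrnp1 had between 2319.9 and 2756, between 1109 and 1598 and between 355 and 396 over the libraries, with overlapping groups, and Csrnp1 had the smallest spread of the 40 genes.

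The dual-specificity phosphatases remove phosphate from ERK and other MAP kinases. Dusp1 had 1282, 1152 and 1224 in the TG libraries and 1321, 1221 and 1416 in the WT libraries, with overlapping groups (log2 fold change −0.11, SE 0.07). Dusp4 had 275, 201 and 189.9 in the TG and 137, 270.3 and 201 in the WT libraries. Its highest library, TG replicate 1, and its lowest, WT replicate 1, were 2.00-fold apart, and the WT values took in all TG values but the highest. Dusp5, a nuclear ERK phosphatase, had 486, 420.4 and 458 in the TG and 366, 396 and 446 in the WT libraries, where TG replicates 1 and 3 were above every WT library and TG replicate 2 was not (log2 fold change 0.18, SE 0.09, unadjusted P = 0.0815, limma). Of its 2473 exon bases, 22.1% are shared with AC137853.2 on the opposite strand. Dusp6 and Dusp14 lay between 1655 and 2211 and between 1451 and 1897, both highest in WT replicate 3.

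Among the 11 other signaling regulators, Ier2 had 279, 161 and 220.1 normalized read counts in the TG libraries, in replicate order, and 216, 168 and 253 in the WT libraries. Sik1, a kinase that feeds back on CREB coactivators, had 1037, 909 and 833 in the TG and 896, 874 and 784 in the WT libraries, and Gadd45b, a stress-response gene linked to DNA demethylation in neurons, had 445, 397 and 388 in the TG and 403, 394 and 379.9 in the WT libraries. All 3 genes were highest in TG replicate 1 and had overlapping groups, with log2 fold changes of 0.03, 0.12 and 0.06 (SEs 0.20, 0.09 and 0.08). Btg2, an antiproliferative factor, ranged from 537 to 847, and Gadd45g, of the same family as Gadd45b, from 323 to 524. Ppp1r15a, a subunit of the phosphatase of eIF2α, ranged from 431 to 547, and the pseudokinase gene Trib1 from 492 to 646. The kinase gene Pim1 ranged from 75.3 to 111, Midn from 1999 to 2588, Ier3 from 181 to 241 and Ier5 from 2215 to 2639. The 8 genes Ier3, Ier5, Btg2, Gadd45g, Pim1, Midn, Trib1 and Ppp1r15a had estimates between −0.17 (Btg2) and 0.10 (Ier3), and none had groups that did not overlap.

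The 3 effectors act at the synapse or are secreted. Arc (chr15:74669083-74672570) had 11044, 8686 and 10139.5 normalized read counts in the TG libraries, in replicate order, and 9036, 8433 and 12561 in the WT libraries. WT replicate 3 was the highest library and WT replicate 2 the lowest, so all TG values fell inside the WT range, and the log2 fold change was 0.0077 (SE 0.13, adjusted P = 0.997). Nptx2, a secreted pentraxin that gathers AMPA receptors, had 1751, 1427 and 1540.5 in the TG and 1621, 1676 and 1686 in the WT libraries. Its groups overlapped because of TG replicate 1 alone, the highest library of the 6 (log2 fold change −0.08, SE 0.07). Inhba, which encodes the activin A subunit, had between 181 and 230.1.

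**Figure D2:**
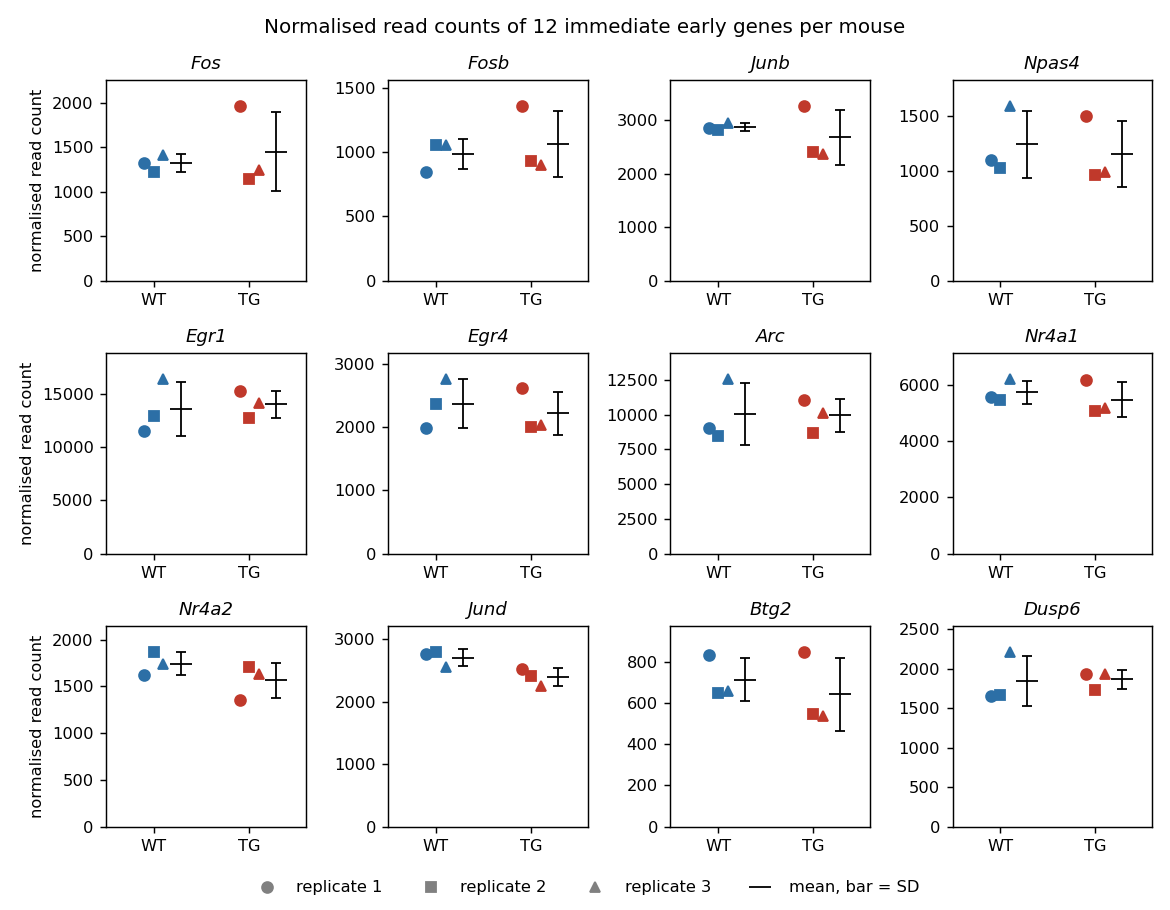
Normalized read counts (y axes, each from 0) of 12 immediate early genes in each mouse, with WT in blue, Shank3 TG in red, the marker shape giving the replicate number and the black bar the mean with its SD (n = 3). TG replicate 1 is the highest TG library for Fos, Fosb, Junb, Npas4, Egr1, Egr4, Arc, Nr4a1, Jund and Btg2, WT replicate 3 is the highest WT library for Fos, Junb, Npas4, Egr1, Egr4, Arc, Nr4a1 and Dusp6, and the groups are apart for Jund alone.

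The genes varied more between mice of the same genotype than most genes did. The SD of the log2 values within genotype had a median of 0.172 over the 40 genes, with 0.0594 for Csrnp1 and 0.511 for Atf3 at the ends, beside 0.108 over all tested genes and 0.0829 over the 12832 genes whose mean reached 100. Of those 12832 genes, 88.5% had an SD below the median of the immediate early genes. A spread of this size was not particular to these genes. Among the lists described below, the median SD was 0.195 for cortical excitatory, 0.191 for indirect pathway and 0.165 for direct pathway markers. Blood and choroid plexus markers (1.21) had larger medians, and late response genes had 0.148. The median was lower for astrocyte (0.123), endothelial (0.118), oligodendrocyte (0.0972) and microglia (0.0934) markers and for upstream signaling genes (0.0776). Counting error alone would give a median SD of 0.0435 for the 40 genes, below the measured spread. Fos was 1.72-fold apart between its highest and lowest library, Npas4 1.65-fold, Ier2 1.74-fold and Arc 1.49-fold, while Csrnp1 was 1.11-fold apart.

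The same mice tended to be high or low across the genes. TG replicate 1 was the highest library for 18 of the 40 genes (45%) and WT replicate 3 for 14 (35%), where these libraries were highest for 17.8% and 16.8% of all tested genes. TG replicate 2 was lowest for 15 genes (37.5%) and WT replicate 1 for 13 (32.5%), beside 18.9% and 16.5% of all genes. TG replicate 1 and WT replicate 3 were together the 2 highest libraries for 15 of the 40 genes (37.5%), among them Fos, Junb, Egr1, Egr2, Egr4, Nr4a1, Npas4 and Arc, against 5.07% of all genes. Each of these libraries was above the mean of the gene for 33 of the 40 genes, and TG replicate 2 was above it for 6. The median log2 deviation of the 40 genes was 0.15, −0.14 and −0.06 in TG replicates 1, 2 and 3 and −0.06, −0.03 and 0.11 in WT replicates 1, 2 and 3, while the median over all tested genes stayed between −0.00013 and 0.0032. The labels give no litter, batch or time of dissection, and the part of any of these in the pattern was not tested.

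**Figure D3:**
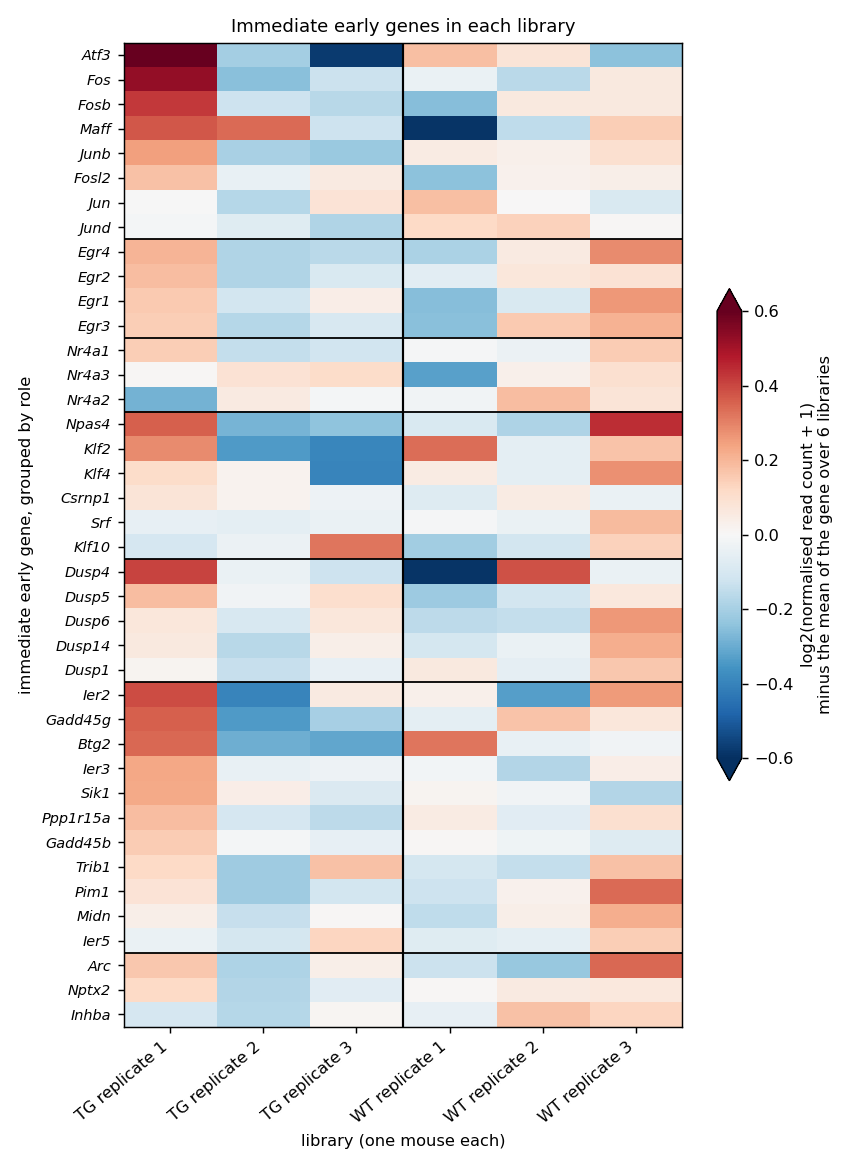
Log2 deviation of each immediate early gene (rows, grouped by role) from its own mean over the 6 libraries (columns), with red above and blue below the mean. The columns of TG replicate 1 and WT replicate 3 are mostly red (33 of 40 genes above their mean in each) and that of TG replicate 2 mostly blue (6 of 40 above), while Nr4a2 runs the other way in TG replicate 1.

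The estimates moved when single libraries were left out. Without TG replicate 1, 8 of the 40 genes were lower at an unadjusted P below 0.05 (Junb, Klf2, Btg2, Jund, Gadd45g, Nptx2, Nr4a1 and Egr2) and 0 were higher, where 4.55% of all genes were lower and 2.99% were higher, and the smallest adjusted P value was that of Junb (0.550, log2 fold change −0.27, limma). Without WT replicate 3, 4 genes were higher (Dusp5, Dusp6, Egr1 and Maff, where 1.48% of all genes were higher) and Jund was lower (where 1.86% of all genes were lower). No gene of the 40 passed the adjusted threshold in either setting. Each of the 8 lower genes had TG replicate 1 as its highest TG library. The 4 higher genes had WT replicate 3 as their highest WT library. Leaving that library out thus moves their estimates in the stated direction by itself, and the genes varied together. These counts show how far 1 library moves the estimates and are no test of genotype. The median log2 fold change of the 40 genes was −0.10 without TG replicate 1 and 0.03 without WT replicate 3. Jund passed the unadjusted threshold in 4 of the 6 settings that left out a library and missed it without TG replicate 3 and without WT replicate 2.

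Over the 6 libraries the immediate early genes varied together. The Pearson correlation of the log2 values had a median of 0.395 over the 780 pairs of the 40 genes, with 77.95% of pairs above 0 and 10.6% above 0.8, beside a median of −0.00075 with 49.96% above 0 and 3.19% above 0.8 over the pairs of all 17605 tested genes. These are descriptions over 6 libraries that share their size factors, and the pairs are not independent of each other. With the mean of each genotype subtracted, the median was 0.491, and with each library left out in turn it was lowest when TG replicate 1 was dropped (0.338) and highest when TG replicate 3 was (0.458). The median over the pairs of all genes lay between −0.00075 and −0.00025 in each of these settings.

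**Figure D4:**
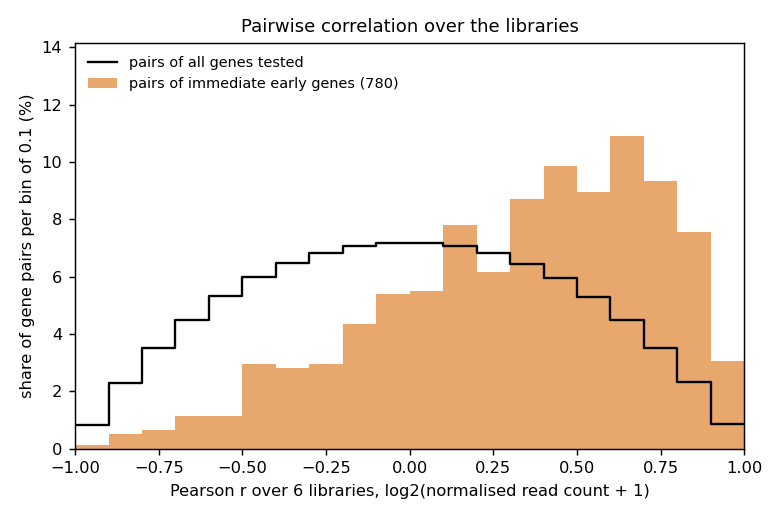
Share of gene pairs (y axis, percent per bin of 0.1) by the Pearson correlation of their log2 normalized read counts over the 6 libraries (x axis), with bars for the 780 pairs of immediate early genes and a line for the pairs of all tested genes. The bars are shifted to the right, with a median of 0.395, while the line is centered at −0.00075.

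By role, the Egr genes varied most alike, with correlations between 0.61 and 0.93 and a median of 0.83 over 6 pairs. The median was 0.57 within the dual-specificity phosphatases (10 pairs), 0.52 within the other signaling regulators (55 pairs), 0.48 within the effectors (3 pairs), 0.25 within the AP-1 group (28 pairs), 0.11 within the Klf and other DNA-binding factors (15 pairs) and −0.08 within the Nr4a genes (3 pairs). Npas4 had the highest median correlation with the other 39 genes (0.68), followed by Nr4a1 (0.67), Egr4 (0.60), Pim1 (0.60), Egr2 (0.59) and Junb (0.58). Nr4a2 had the lowest (−0.33), followed by Jun (−0.09), Klf10 (−0.01), Jund (0.10) and Sik1 (0.10). Nr4a2 and Fos had a correlation of −0.85, whereas Nr4a1 and Npas4 had one of 0.97.

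Arc served as the main reference gene, and the same was run with Fos. Among the other 39 genes, 34 had a Pearson correlation with Arc above 0 and 6 had one above 0.8, where 2.102% of the 17604 other tested genes did. The highest was Dusp6 (r = 0.96, exact permutation P = 0.0111, Spearman's rho = 0.77, exact permutation P = 0.103). Dusp14 had r = 0.92 (exact permutation P = 0.0111, rho = 0.83, P = 0.0583), Egr1 r = 0.90 (exact permutation P = 0.0194, rho = 0.77, P = 0.103), Trib1 r = 0.88 (exact permutation P = 0.0444, rho = 0.77, P = 0.103), Npas4 r = 0.87 (exact permutation P = 0.0264, rho = 0.71, P = 0.136) and Ier2 r = 0.85 (exact permutation P = 0.0389, rho = 0.89, P = 0.0333). The adjusted P value was 0.9996 for every gene with Pearson's r and 1 with Spearman's rho for these 6. For Pearson's r, 3.65% of the 17604 genes compared had an exact permutation P below 0.05, and 7 of the 39 did. With 720 pairings no P below 0.00139 was possible. Without the 2 libraries farthest from the median of Arc, WT replicate 3 and TG replicate 1, r was 0.88 for Dusp6, 0.94 for Trib1, 0.80 for Ier2, 0.66 for Dusp14, 0.54 for Egr1 and −0.14 for Npas4. The relation of Npas4 to Arc thus rested on those 2 libraries. So did that of other genes whose r was above 0 over the 6 libraries. Without those 2, r was −0.23 for Pim1, −0.29 for Nr4a1, −0.52 for Egr4 and −0.84 for Klf4. For others r stayed above 0, such as Ier5 (0.91), Klf10 (0.825) and Dusp5 (0.62). Outside the immediate early genes, and among genes whose mean reached 100, the highest correlations with Arc were those of Cpsf1 (0.98), Tmem201 (0.98), Uhrf1bp1 (0.98), Olfml2a (0.98) and Bin1 (0.98), and the lowest those of Zfp318 (−0.99) and Atr (−0.98). With Fos as reference, 35 of the other 39 genes had a Pearson correlation above 0. Of the 39, 6 were above 0.8, where 3.14% of the 17604 other tested genes were. An exact permutation P below 0.05 was found for 8 of the 39 and for 5.61% of the 17604. The smallest adjusted P value with Fos was 0.804.

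Cell type markers also differed between the mice, and not always in step with the immediate early genes. The summed normalized read counts of 10 choroid plexus markers were 15641, 1949 and 680 in TG replicates 1, 2 and 3, against 591 to 947 in the WT libraries, with all 10 markers highest in TG replicate 1. The 5 blood markers summed to 3410 in TG replicate 1 and to between 1805 and 2589 elsewhere, and all 5 were highest in TG replicate 1. The 6 indirect pathway markers summed to 31583 in TG replicate 1, the lowest, and to 44769 in TG replicate 2, the highest, with 38093 to 41761 in the WT libraries, and the 7 direct pathway markers gave 14041 and 18377 in the same TG libraries. TG replicate 2, low for the immediate early genes, also had the lowest sum of the 12 cortical excitatory markers (74252), whereas WT replicate 3, high for the immediate early genes, had the second lowest (84402), and the other 4 libraries lay between 90370 and 93024. The indirect pathway sum of WT replicate 3 was the second highest (41761), unlike that of TG replicate 1. WT replicate 3 had 947 for the choroid plexus sum and the highest oligodendrocyte sum (284791 over 9 markers, with 249110 to 258250 elsewhere), and 7 of those 9 markers were highest there.

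Among the other marker lists, the 12 endothelial markers summed to between 11008 and 11526 in the TG and between 10336 and 12274 in the WT libraries and the 9 astrocyte markers to between 120678 and 127089 in the TG and between 118097 and 126477 in the WT libraries. The 10 microglia markers split by genotype, with sums of 12489 to 13573 in the TG and 13698 to 14208 in the WT libraries. All 10 microglia estimates were below 0 (median log2 fold change −0.12 beside −0.0018 over all genes), 0 passed the adjusted threshold (limma), 3 were lower at an unadjusted P below 0.05 (2.33% of all genes) and 4 were lower without overlap (5.05% of all genes). Other lists also had all estimates on 1 side. The 10 choroid plexus (median log2 fold change 1.12) and 5 blood estimates (0.27) were above 0. The 6 indirect pathway estimates (−0.13) were below 0. Of the choroid plexus markers, 0 passed the adjusted threshold (limma). At an unadjusted P below 0.05, 3 of the 10 were higher (1.98% of all genes), and 3 were higher without overlap (5.06% of all genes). Blood and indirect pathway markers gave 0 for each of these counts. No marker of any list was at 0 in a library. The part of cell makeup in the values of the immediate early genes was not tested.

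**Figure D5:**
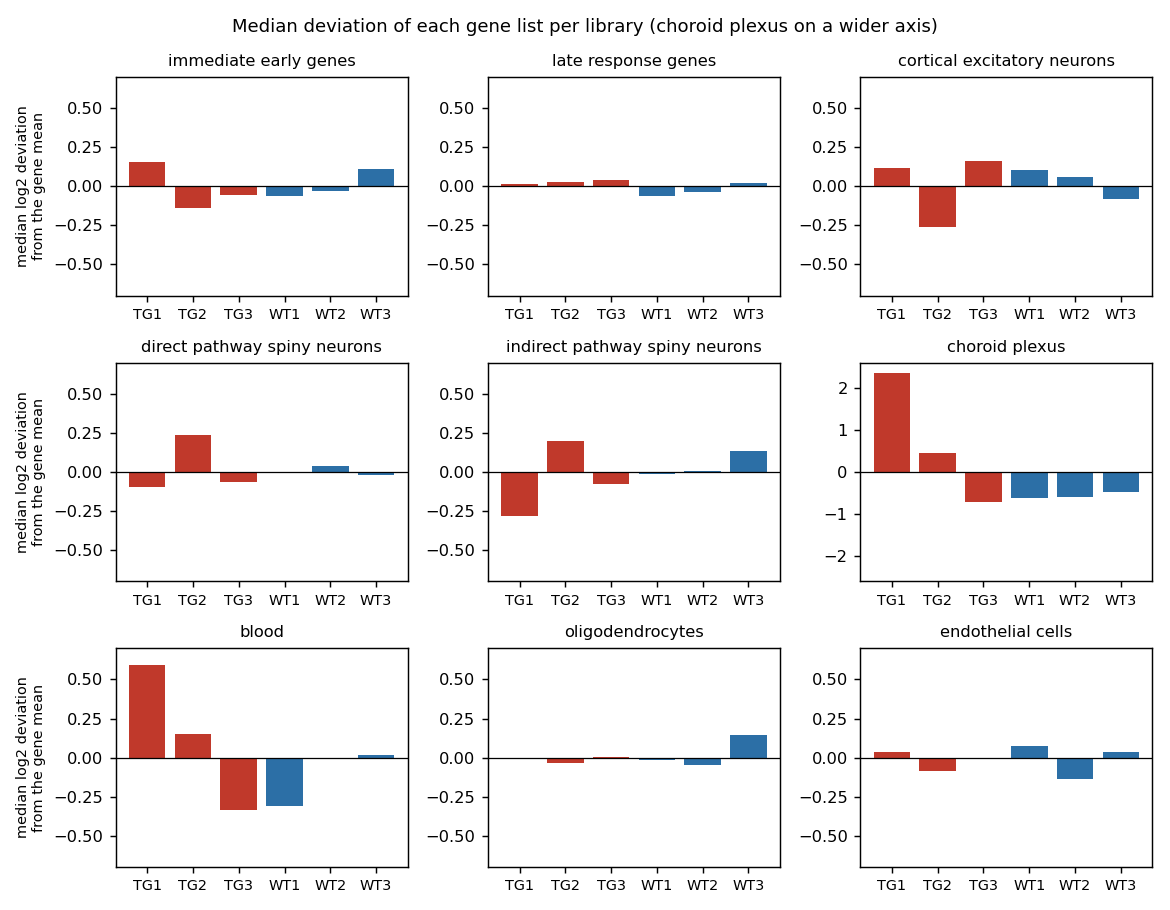
Median log2 deviation from the gene mean (y axis, wider for choroid plexus) of the immediate early genes, the late response genes and 7 marker lists in each library (x axis), with Shank3 TG in red and WT in blue. The immediate early genes are highest in TG replicate 1 (0.15) and WT replicate 3 (0.11), and TG replicate 1 also has the highest choroid plexus (2.36) and blood (0.59) medians and the lowest indirect pathway median (−0.28).

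Of the upstream signaling genes and activity-responsive factors, 39 of 42 listed were tested. The list takes in kinases, phosphatase subunits, coactivators, receptors and transcription factors. None passed the test (limma, adjusted P below 0.05), and at an unadjusted P below 0.05 there were 1 lower and 0 higher, where 2.33% of all genes were lower and 1.98% were higher, so the count was near the background. The lower gene was Map2k2, the ERK kinase MEK2, with 2109, 2136 and 2137 in the TG libraries and 2289, 2365 and 2288 in the WT libraries and thus no overlap (log2 fold change −0.12, SE 0.04, unadjusted P = 0.021, adjusted P = 0.971). The highest estimates were those of Creb1 (0.11) and the SRF partner gene Elk4 (0.08) and the lowest those of Rasgrp2 (−0.15) and Ppp1r1b (−0.15), the gene of the dopamine-regulated phosphatase inhibitor DARPP-32. The list had a median log2 fold change of −0.02, with 17 estimates above 0 and 22 below, and the groups of 4 genes did not overlap, all lower in the TG libraries, where 5.05% of all genes were.

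Late response genes follow the immediate early genes after hours and encode neuropeptides, growth factors and synaptic proteins. All 35 listed were tested, and none passed the adjusted threshold. At an unadjusted P below 0.05, 2 of the 35 were higher in Shank3 TG mice and 0 lower, where 1.98% of all genes were higher and 2.33% were lower. Scg2, a granin of dense core vesicles, had 9953, 9979 and 9119 normalized read counts in the TG libraries, in replicate order, and 8956, 8646 and 7462 in the WT libraries, with no overlap (log2 fold change 0.22, SE 0.07, unadjusted P = 0.0105, adjusted P = 0.971, limma), where 5.06% of all genes were higher without overlap. Vgf, a granin-like secreted peptide precursor, had 9443, 8289 and 8517 in the TG and 7478, 8429 and 7734 in the WT libraries, with overlap (log2 fold change 0.15, SE 0.06, unadjusted P = 0.0358). The highest estimates were those of Ptgs2 (0.44, SE 0.20) and Rasd1 (0.42, SE 0.26), both highest in TG replicate 1, and the lowest those of Crh (−0.25, SE 0.22) and Acan (−0.24, SE 0.14). The median log2 fold change of the list was 0.06, with 23 estimates above 0 and 12 below. Pdyn, Penk and Tac1 are on this list and also among the spiny neuron markers.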

How the data were processed

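Before depositing, the authors cleaned reads with Trimmomatic 0.35, aligned them to GRCm38 with TopHat2 2.1.0, obtained gene counts with HTSeq and scaled these with DESeq2 size factors. The deposited signal is that normalized read count for each gene and library. Whether reads were counted by strand, and which annotation release was used, is not given in the sources used here. Division by the smallest value above 0 in each library recovered whole reads for 100% of values (within 0.01), 27689589 to 36647626 reads per library. Sampling noise at this depth is the counting SD given in the text.

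Gene names came from GENCODE M21, which matched 45143 of 46078 identifiers. Genes averaging at least 10 were tested on the log2(value + 1) scale, which understates the change of a low gene, by limma 3.58.1 (R 4.3.3) with its trend option, and P values were adjusted by Benjamini-Hochberg with a threshold of 0.05. Groups came from the sample labels, and no library was left out. The alternatives were DESeq2 1.42.0, edgeR 4.0.16 and limma-voom on the recovered reads, TMM scaling, library totals, pseudocounts of 0.5 and 5, no filter, a mean of at least 50, each library left out and a replicate block. The procedure was tested on simulated data in which every gene had the same dispersion. The immediate early genes varied unequally and more than most genes, so that test does not show what change in them could be found.

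The 40 genes, the lists and the tests were chosen with earlier results of these data known. Values in every library are given for 18 genes named by a rule (Fos, Fosb, Junb, Egr1 to Egr4, Arc, Npas4, Nr4a1 to Nr4a3, Dusp1, Ier2, Sik1, Nptx2, Gadd45b and Klf4), the 5 with the smallest P values, the 2 with the highest and the 2 with the lowest fold changes and the 3 with the largest SD. Of the upstream and late response lists, those named had an unadjusted P below 0.05 or were among the 2 largest changes in each direction. Btg2 and Dusp6 were plotted after their values had been seen. Correlations with Arc and with Fos had exact permutation P values.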

Additional observations from a re-analysis of the deposited data

How the results depend on the processing

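None of the 40 genes passed the adjusted threshold in the limma fit or under any alternative run, and the smallest adjusted P value of the 40 was 0.550. Over all genes, 7 were called by DESeq2 and 5 without a filter on low values against 1, and between 1 and 2 with a library left out. The count of immediate early genes at an unadjusted P below 0.05 was 1 under the other tools, scalings, pseudocounts and filters, between 1 and 8 with a library left out and 5 with the replicate number as a block (Btg2, Nr4a2, Klf2 and Jund lower, Klf10 higher), beside 5.82% of all genes. The labels do not say whether a replicate number marks a pair or a batch, and these values cannot settle it. Same-numbered libraries had deviations with correlations of 0.047, 0.016 and 0.093, beside −0.125 to 0.077 for libraries of different numbers. TG replicates 1 and 2 and WT replicate 2 deviated most like a library of another number, and TG replicate 3 and WT replicates 1 and 3 most like that of their own. The median pairwise correlation was 0.491 with genotype means subtracted and 0.338 to 0.458 with a library left out, the latter and the unadjusted counts being settings added after seeing the data. The median log2 fold change of the 40 genes was above 0 without TG replicate 2 (0.02) and without WT replicate 3 (0.03).

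Of 400 single-gene estimates under alternatives that kept all libraries, 395 kept their sign. Atf3 gave 0.10 with DESeq2, 0.12 with edgeR and 0.028 with limma-voom against −0.01, and Arc gave −0.0085 with DESeq2 and −0.0092 with edgeR against 0.0077. With a library left out, 39 of 240 estimates of 20 genes changed sign, with log2 fold changes of −0.14 to 0.25 for Fos, −0.098 to 0.20 for Fosb, −0.056 to 0.20 for Egr1, −0.091 to 0.39 for Dusp4, −0.045 to 0.16 for Dusp6, −0.16 to 0.24 for Ier2, −0.076 to 0.062 for Ier5, −0.10 to 0.18 for Arc, −0.12 to 0.015 for Jun, −0.39 to 0.27 for Atf3, −0.17 to 0.014 for Egr2, −0.32 to 0.084 for Npas4, −0.11 to 0.049 for Dusp14, −0.33 to 0.02 for Gadd45g, −0.0077 to 0.22 for Klf10, −0.023 to 0.17 for Trib1, −0.15 to 0.018 for Ppp1r15a, −0.22 to 0.0067 for Egr3, −0.22 to 0.021 for Egr4 and −0.16 to 0.027 for Midn. The cause was not tested. With 3 mice in each group, the intervals in the text show in part what size of difference could be seen, with the limit on their width stated there. The SD from counting error was highest for Maff (0.204), Atf3 (0.194) and Pim1 (0.156).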
